A study of Homo sapiens with 9 samples.

Results

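The genes described here are the protein-coding genes whose symbols start with NDUF, which encode nuclear subunits and assembly factors of respiratory complex I. RefSeq lists 46 of them among 20037 protein-coding genes on the nuclear chromosomes. An SF3B1 binding site was assigned to such a gene when its centre lay inside the gene span of assembly GRCh38.p14 and on the gene's strand. This gave 188 of the 96852 sites in the deposited list, in 33 of the 46 genes. The members were taken by their symbols.

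Complex I takes electrons from NADH, passes them along iron-sulphur clusters to ubiquinone, and pumps protons across the inner mitochondrial membrane. Its catalytic core is built partly from proteins made inside mitochondria and partly from nuclear NDUFS and NDUFV proteins, accessory subunits surround the core, and assembly factors help to build the enzyme without staying in it. The nuclear genes contain introns, whereas mitochondrial transcripts are not processed by the spliceosome. SF3B1 is a component of the U2 small nuclear ribonucleoprotein, the part of the spliceosome that recognises the branch point upstream of a 3′ splice site.

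The sites came from iCLIP of K562, an established human leukaemia cell line, in which proteins are crosslinked to RNA by ultraviolet light (400 mJ/cm2 at 254 nm), immunoprecipitated, and mapped to the crosslinked nucleotides. The series holds 9 libraries, each labelled as a replicate. They are 3 of SF3B1 with genotype SF3B1 wt/wt, 2 of SF3B1 with genotype SF3B1 K700E/wt, and 4 of U2AF2 with genotype SF3B1 wt/wt. The labels attach the list to the 3 SF3B1 wt/wt libraries (line from Horizon Discovery); the other 6 libraries were not analysed here, so neither K700E nor U2AF2 is compared. The track line of the list requires reproducibility in every replicate of one or the other condition, without naming the conditions, so a single site cannot be assigned to a genotype.

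All sites were 5 nt wide and every score was 0. The list holds no read number and no value per replicate, so the depth is unknown, no spread between cultures can be given, and none of the differences below was tested. Intervals are 95% Wilson intervals and cover counting error only. Absence of sites may mean absence of binding or too little RNA in the cells, and the list does not separate these. The labels name the source as derived from lymphoid leukaemia, while K562 is known as a myeloid line with erythroid features. Of 14 erythroid and K562 marker genes 7 had a site (50%), against 38.0% of all protein-coding genes. TFRC, the transferrin receptor, led with 121 and TAL1 had 17, while the globin genes HBE1, HBG1, HBG2 and HBZ had 0. None of 12 lymphoid marker genes had a site. These counts describe bound RNA and are not expression levels.

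Most complex I genes carried SF3B1 sites. Of the 46 NDUF genes 33 had 1 site or more, 71.7% (95% interval 57.5% to 82.7%), against 38.0% of all protein-coding genes. The share with at least 5 sites was 30.4% (14 genes) against 23.1% of all protein-coding genes, and that with at least 10 sites was 15.2% (7 genes) against 14.8%. The NDUF share was thus above the background for any site and near it for 10 sites or more. Transcript abundance was not used here, so no count is corrected for expression. Among genes with a site, of any length, the median was 2 sites in NDUF genes and 7 in all protein-coding genes.

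NDUF genes are shorter than the average gene, with a median span of 12.6 kb against 24.1 kb. The share with a site was therefore also set against genes of the same length. Below 5 kb, 4 of 7 NDUF genes had a site against 12.7% of protein-coding genes. From 5 to 10 kb it was 9 of 11 against 28.4%, and from 10 to 20 kb 8 of 13 against 37.2%. From 20 to 50 kb it was 7 of 9 against 49.2%, and at 50 kb or more 5 of 6 against 46.6%. In each of the 5 length classes the NDUF share was above that of all protein-coding genes. The median number of sites among genes with a site was also taken by length. It was 1.5 in NDUF genes against 3 below 5 kb, and 2 against 4 from 5 to 10 kb. From 10 to 20 kb it was 5.5 against 5, from 20 to 50 kb 7 against 7, and at 50 kb or more 9 against 9.

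The classes differed in the number of sites. The NDUFS and NDUFV genes had a site in 10 of 11 genes (90.9%, interval 62.3% to 98.4%), with a mean of 8.0 and a median of 8 sites per gene. The NDUFA, NDUFB and NDUFC genes had a site in 17 of 27 (63.0%, interval 44.2% to 78.5%), with a mean of 2.30 and a median of 1. The NDUFAF assembly factors had a site in 6 of 8 (75.0%, interval 40.9% to 92.9%), with a mean of 4.75 and a median of 2. The intervals of the 3 shares overlap. Median spans were 14.6 kb, 12.0 kb and 26.1 kb, so the first 2 classes were of similar length. From 5 to 10 kb, the 4 NDUFS and NDUFV genes had 28 sites and the 6 accessory genes had 11. From 10 to 20 kb, 4 NDUFS and NDUFV genes had 35 and 8 accessory genes had 10, and from 20 to 50 kb 2 had 23 and 5 had 11. At 50 kb or more the order was the opposite, with 2 sites in the only NDUFS or NDUFV gene, NDUFS4, and 26 in 3 accessory genes. Below 5 kb there was no NDUFS or NDUFV gene.

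**Figure D1:**
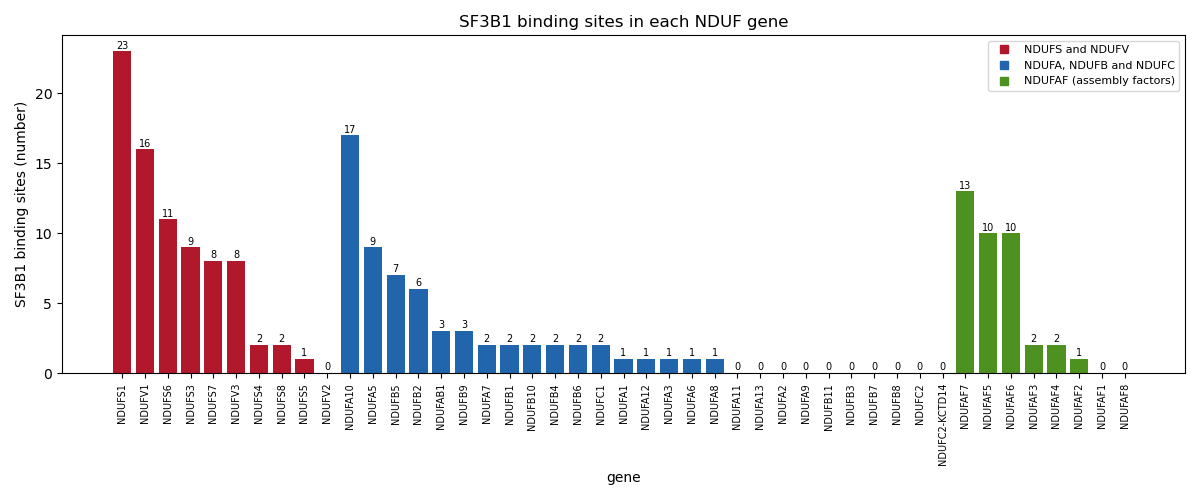
Number of SF3B1 binding sites (vertical axis) in 45 of the 46 NDUF genes (horizontal axis), coloured by class; each bar is 1 count from the merged list and has no error bar because the list gives no value per replicate. The NDUFS and NDUFV genes reach 23 sites and 6 of the 10 shown have at least 8, while 21 of 27 NDUFA, NDUFB and NDUFC genes have 2 or fewer.

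The names do not follow function exactly. Only 7 of the 11 NDUFS and NDUFV genes, NDUFS1 and NDUFV1 among them, encode subunits of the conserved catalytic core; NDUFS4, NDUFS5, NDUFS6 and NDUFV3 encode accessory subunits. The 7 core genes held 66 sites, with a mean of 9.43 per gene and a pooled density of 0.541 sites per kb. The 31 accessory genes by function held 84 sites, with a mean of 2.71 and a pooled density of 0.115 per kb. Pooled densities give long genes more weight, and the longest span was 44.6 kb in core and 133 kb in accessory genes. Among genes with a site the median density was 0.6 per kb in core and 0.196 per kb in accessory genes, a smaller gap. The higher count of the core class was thus present under both definitions. Over all protein-coding genes the pooled density was 0.0728 per kb. It is not matched for length, as their median span was 24.1 kb against 11.7 kb in the 7 core genes. Within length classes, mean sites per gene were compared for NDUFS and NDUFV, for NDUFA, NDUFB and NDUFC, and for all protein-coding genes. They were 7, 1.83 and 1.89 from 5 to 10 kb, and 8.75, 1.25 and 3.27 from 10 to 20 kb. From 20 to 50 kb they were 11.5, 2.2 and 5.95, and at 50 kb or more 2, 8.67 and 7.75.

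NDUFS1, the largest subunit and a carrier of iron-sulphur clusters in the arm that takes up NADH, had the most sites of the family. It held 23 sites on the minus strand of chromosome 2 (gene span 206114817 to 206159444). They began 5721 nt from the 5′ end of the span and ended 9476 nt before its 3′ end, in 14 clusters when neighbours at most 60 nt apart were joined. In 7 of these clusters sites lay 5 to 10 nt apart. More sites than in NDUFS1 were found in 1153 protein-coding genes.

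NDUFV1, which binds NADH and the flavin that accepts its electrons, held 16 sites in a span of only 5.62 kb on the plus strand of chromosome 11 (67606936 to 67612554). Its density of 2.85 sites per kb was the highest of the family, and 98.0% of the protein-coding genes with a site had a lower density. A run of 9 sites filled the stretch between the site centres 67608330 and 67608532, as 1 cluster of 4 sites and 1 of 5 sites that were 63 nt apart. Its last site lay 2185 nt before the end of the gene. NDUFV2, its iron-sulphur partner in the same module, had 0 sites in 31.6 kb on chromosome 18 and was the one gene of the NDUFS and NDUFV class without a site.

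Core genes of the ubiquinone-binding module followed. NDUFS3, an early scaffold of this module, held 9 sites in 5.49 kb on the plus strand of chromosome 11 (47579074 to 47584562), a density of 1.64 per kb, between 177 nt from its start and 297 nt from its end. NDUFS7, a carrier of an iron-sulphur cluster close to the ubiquinone pocket, held 8 sites on chromosome 19 (1383907 to 1395584), from 34.5% to 97.6%. NDUFS8, which carries iron-sulphur clusters, had only 2 sites, 10 nt apart and 431 nt or more before its end.

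Among accessory subunits named NDUFS or NDUFV, NDUFS6, a zinc-binding protein, held 11 sites on the plus strand of chromosome 5 (1801407 to 1816048), in a stretch near each end. The first 6 lay between 484 and 1011 nt from the 5′ end, then no site followed for 11873 nt, and the other 5 lay in the last 1757 nt. NDUFV3 held 8 sites on chromosome 21, 4 of them in 1 cluster between 9815 and 9856 nt from its start. NDUFS4 had 2 sites in 123 kb, a density of 0.0163 per kb. NDUFS5 had 1 site, 262 nt before its end.

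Of the NDUFA, NDUFB and NDUFC genes, NDUFA10 alone accounted for 17 of 62 sites. This gene, for a matrix-side subunit related to nucleoside kinases, spans 133 kb on the minus strand of chromosome 2 (239892442 to 240025342). Its first 14 sites lay 6678 to 20113 nt from the 5′ end, the other 3 lay 64110 to 66248 nt from it, and the remaining 66652 nt to the 3′ end had none. Without NDUFA10 the mean of the class was 1.73 sites per gene. NDUFA5, a subunit of the ubiquinone module, followed with 9 sites on chromosome 7 (123536997 to 123601651, minus strand), NDUFB5 with 7 on chromosome 3 and NDUFB2 with 6 on chromosome 7. All 9 sites of NDUFA5 lay 44265 nt or more from the start of its 64.7 kb span, yet RefSeq lists another start for this gene at position 123557818. Counted from that start, they lay between 432 and 12121 nt downstream.

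The other NDUFA, NDUFB and NDUFC genes had few sites. NDUFAB1, the mitochondrial acyl carrier protein, and NDUFB9 had 3 sites each. NDUFA7, NDUFB1, NDUFB10, NDUFB4, NDUFB6 and NDUFC1 had 2 each, and NDUFA1, NDUFA12, NDUFA3, NDUFA6 and NDUFA8 had 1 each. The site of NDUFA12 was the closest to a gene start, 98 nt from it. No site was found in NDUFA11, NDUFA13, NDUFA2, NDUFA9, NDUFB11, NDUFB3, NDUFB7, NDUFB8, NDUFC2 or the readthrough gene NDUFC2-KCTD14, whose span covers that of NDUFC2. Apart from the readthrough gene, NDUFA9 was the longest gene of the class without a site, at 45.2 kb.

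In the assembly factors, the sites were concentrated in 3 genes. NDUFAF7, a methyltransferase, held 13 sites on the plus strand of chromosome 2 (37231658 to 37271365), which fell from 11.0% to 41.7% of its span. Its span also contained 4 sites on the minus strand, all inside PRKD3, a kinase gene that overlaps it on that strand. NDUFAF5, an enzyme that hydroxylates NDUFS7, held 10 sites on chromosome 20 (13785028 to 13821580), spread from 5.71% to 99.2% of the span. NDUFAF6, required for early steps of assembly, held 10 sites on chromosome 8 (94895799 to 95118496), between 41.5% and 70.2% of a 223 kb span. NDUFAF3 and NDUFAF4, which act together, had 2 sites each. NDUFAF2, a relative of NDUFA12, had 1 site in 208 kb, the lowest density of any NDUF gene with a site (0.00481 per kb). NDUFAF1 and NDUFAF8 had 0.

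**Figure D2:**
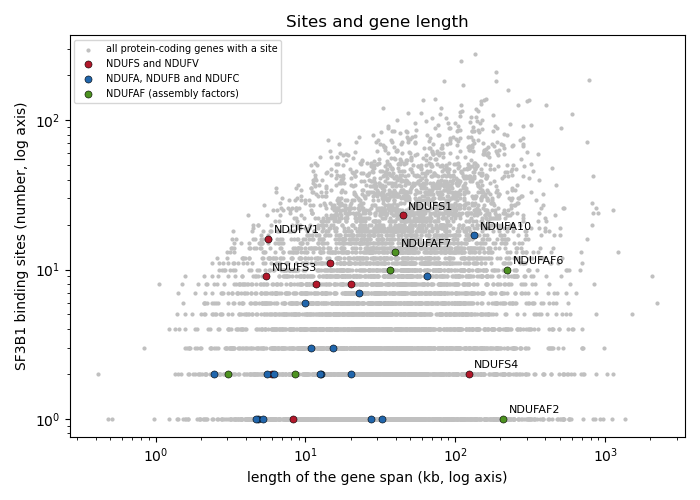
Number of sites (vertical log axis) against the length of the gene span in kb (horizontal log axis) for all protein-coding genes with a site (grey points) and 32 NDUF genes with a site (coloured by class); each point is 1 gene. NDUFV1 has 16 sites in 5.62 kb and stands near the upper edge of the points, while NDUFAF2 has 1 site in 208 kb.

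The number of sites was loosely related to length. Spearman's rho between the number of sites and the span was 0.29 across the 46 NDUF genes and 0.25 across all protein-coding genes, where genes share one list and are not independent replicates. The 10 NDUF genes with the most sites, 5 of them NDUFS or NDUFV genes, 3 assembly factors and 2 accessory genes, held 67.0% of the NDUF sites.

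Sites near the 3′ end of the gene were frequent in this family. Of the 188 NDUF sites, 25 lay in the last 500 nt of the gene span, 13.3% (interval 9.17% to 18.9%), against 1.28% of 94312 site assignments in all protein-coding genes. At least 1 such site was present in 16 of the 33 NDUF genes with a site, 48.5%, against 8.41% of all protein-coding genes with a site. The window of 500 nt was chosen after the positions were seen, and sites of one gene are not independent.

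Short genes place more of any site near their end, so the same share was taken within length classes. From 5 to 10 kb, 10 of 41 NDUF sites (24.4%, interval 13.8% to 39.3%) lay in the last 500 nt, against 4.75% in all protein-coding genes of that length. From 10 to 20 kb it was 10 of 45 (22.2%, interval 12.5% to 36.3%) against 2.68%. Below 5 kb it was 4 of 6 against 13.0%. From 20 to 50 kb 1 of 57 sites lay there (1.75%) against 0.932%, and at 50 kb or more 0 of 39 against 0.356%. The high share was thus seen in the NDUF genes under 20 kb.

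In 13 of the 16 genes, the site closest to the end lay 150 to 320 nt before it. This range, like the window of 500 nt, was chosen after the distances were seen. It was not taken for all protein-coding genes. NDUFC1, a small membrane-arm subunit, had both of its sites in this range, 227 and 192 nt before the end (centres 139290144 and 139290109 on chromosome 4, minus strand). NDUFB4 had its 2 sites 359 and 314 nt before the end, and NDUFB1 170 and 165 nt. The single site of NDUFA1 lay 164 nt before the end and that of NDUFS5 262 nt. In 7 genes all sites lay in the last 500 nt: these 5, NDUFB10 and NDUFS8. NDUFB2 had the site closest to an end, at 94 nt, with a second 39 nt upstream of it. Core genes took part as well, with a site 277 nt before the end in NDUFS7 and 297 nt in NDUFS3. By class, the share was 21.0% of sites in accessory genes, 11.4% in NDUFS and NDUFV genes and 5.26% in assembly factors, with overlapping intervals.

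**Figure D3:**
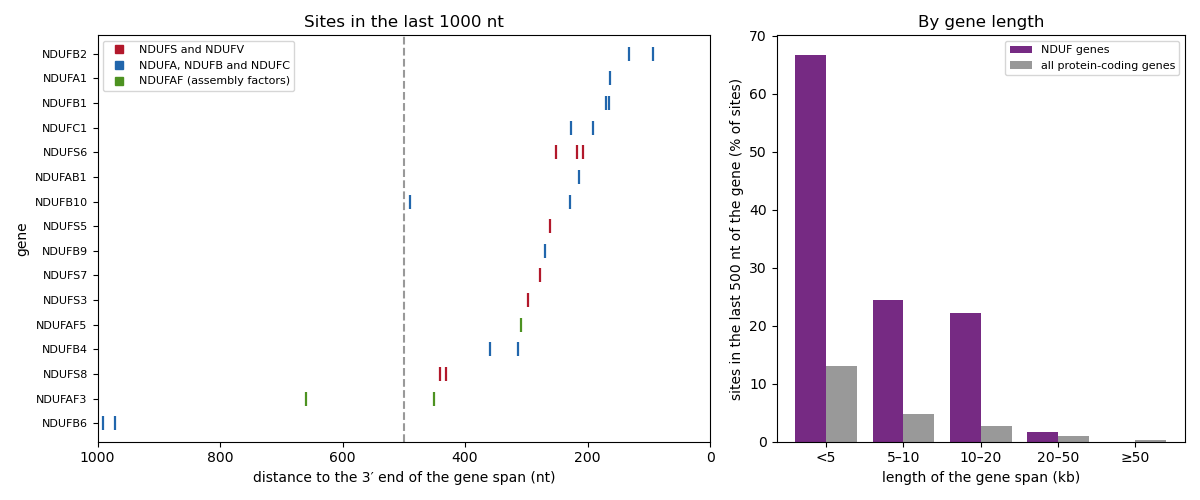
Left, distance of sites to the 3′ end of the gene span in nt (horizontal axis, end at the right) for 16 NDUF genes with a site in the last 1000 nt, 1 tick per site, with a dashed line at 500 nt. Right, percentage of sites in the last 500 nt by length of the gene span in kb, for NDUF genes and all protein-coding genes; between 5 and 10 kb the values are 24.4% and 4.75%, and the bar below 5 kb rests on 6 NDUF sites.

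End-proximal sites were also seen in other genes of the respiratory chain. In the pooled genes of complexes II to V, 11.1% of 323 sites lay in the last 500 nt (interval 8.16% to 15.0%), in 21 of 42 genes with a site. In proteasome genes it was 4.13% of 557 sites, and in mitochondrial ribosomal protein genes 3.65% of 274. These pooled shares are not matched for length. From 5 to 10 kb they were 8.64% in complexes II to V, 2.3% in proteasome and 10.8% in mitochondrial ribosomal protein genes. From 10 to 20 kb they were 13.6%, 6.84% and 0%, so the order of the groups differed between length classes. The gene table gives only outer limits of genes, so these sites were not placed in an exon or intron or relative to a splice site.

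At the scale of the whole gene, the picture depended on which genes were counted. Among the 14 NDUF genes that held 5 sites or more, the first 10% of the span contained 16 sites and the last 10% contained 11, a ratio of 0.688 of last over first. In all protein-coding genes with at least 5 sites this ratio was 2.99. With every NDUF gene that had a site, 18 fell in the first and 26 in the last 10%, a ratio of 1.44 against 2.91 for all genes with a site. The last 10% thus held 13.8% of NDUF sites, near the 13.5% in all protein-coding genes. The first 10% held 9.57% against 4.63%, so the NDUF ratio of 1.44 was lower through the share at the start. This does not extend to the ratio of 0.688, where the last 10% held only 11 of 155 sites. The genes with 1 or 2 sites added 2 sites to the first and 13 to the last 10%. NDUFS6 contributed 6 of the 16 sites in the first 10%, and NDUFV1, NDUFA10 and NDUFAF5 contributed 3 each.

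**Figure D4:**
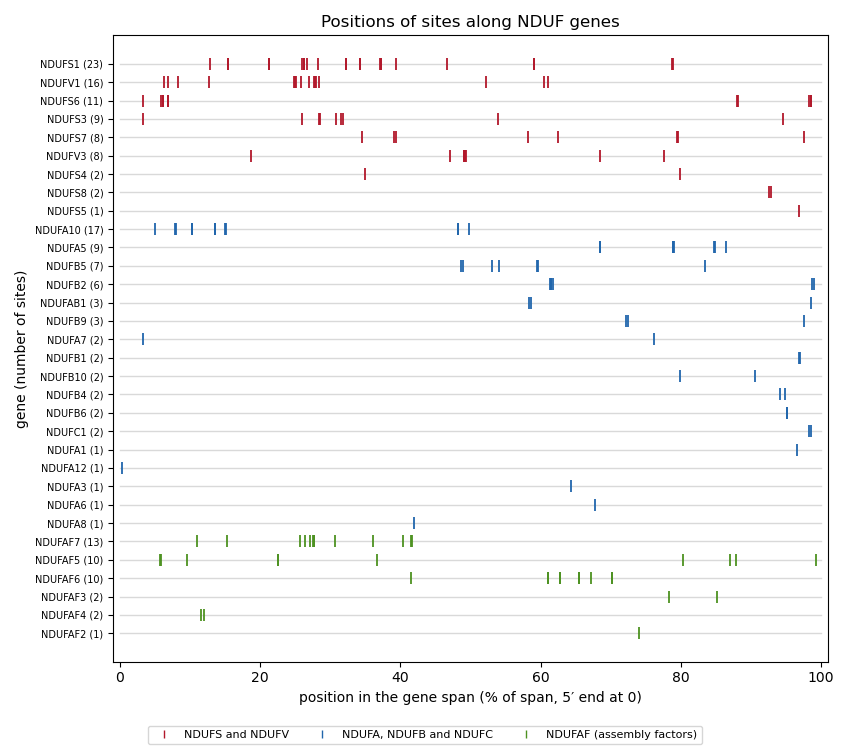
Positions of sites along 32 NDUF genes with a site, as percentage of the gene span from its 5′ end (horizontal axis); each tick is 1 site, rows are genes with their number of sites, and colours mark the classes. Sites of NDUFAF7 lie in the first 41.7% of the span while several accessory genes have ticks only near 100%.

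Sites in NDUF genes came in the arrangement seen across the list, close pairs some 35 nt apart. The ranges of 25 to 45 nt and 46 to 66 nt were known from an earlier look at the same list, so their counts are a description only. Pairs of sites in one gene 25 to 45 nt apart numbered 42, while 13 pairs lay 46 to 66 nt apart, a range of the same width, a ratio of 3.23 against 3.59 in all protein-coding genes. NDUFV1 lowered it: without that gene the pairs numbered 36 and 7, a ratio of 5.14. Of 155 distances between neighbouring sites, 44.5% were at most 60 nt, against 39.7% in all protein-coding genes. Pairs 140 to 180 nt apart numbered 17 against 10 at 60 to 100 nt, a ratio of 1.70 against 1.72, and 10 of the 17 lay in NDUFV genes.

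A paired footprint was counted where a cluster split into exactly 2 groups of sites, with gaps of no more than 12 nt inside a group and 25 to 45 nt between the group means. The NDUF genes held 27 of these in 16 genes, which is 48.5% of the NDUF genes with a site against 55.6% of all genes with one. They held 63 of the 188 sites. Their spacing ran from 27 to 45 nt with a median of 35 nt, against a median of 36 nt in all protein-coding genes. The definition admits only 25 to 45 nt, so these values were bound to lie in that range and their closeness is no separate result. In 21 of the 27 both groups were single sites. Of the other 6, the upstream group held more sites in 3 and the downstream group in 3.

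NDUFAF6 had the most paired footprints, 4 among its 10 sites, with spacings of 37, 30, 42 and 35 nt. NDUFS6 followed with 3, of 36, 33 and 40 nt. NDUFV1 had 2, of 27 and 35 nt. NDUFA5 had 2, of 39 and 41.3 nt, and in the latter 3 abutting or nearly abutting sites lay upstream of 1 site. NDUFB2 showed the same 3 and 1 arrangement at 39.7 nt, and NDUFV3 at 31.3 nt. In NDUFAF4, NDUFB4 and NDUFC1, each with 2 sites in all, the sites formed a single paired footprint of 37, 45 and 35 nt. NDUFAF7, with 13 sites, had none: its 3 closest sites lay 36 and 40 nt apart in a row and so made 3 groups.

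**Figure D5:**
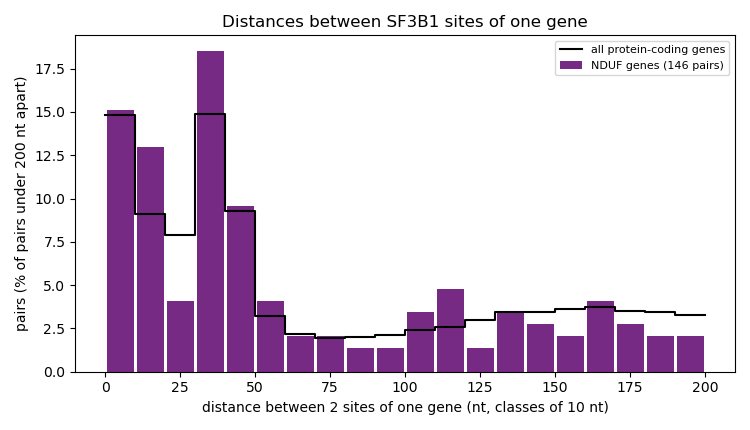
Distances between 2 sites of one gene in classes of 10 nt (horizontal axis) as percentage of all pairs under 200 nt apart (vertical axis), for NDUF genes (bars) and all protein-coding genes (line). The class of 30 to 39 nt holds 18.5% of NDUF pairs and 14.9% of all pairs.

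The strand was clear in nearly all genes. Of the 192 sites inside NDUF spans on either strand, 188 lay on the gene's strand. The exceptions were the 4 sites in NDUFAF7 that fall in PRKD3. The strand was listed for 40 of the 46 genes. For 5 others, including NDUFAF6, NDUFB5 and NDUFB9, it was taken from the sites, all of which lay on 1 strand, so these agree by construction, and NDUFC2 had neither. Although 13 NDUF genes overlap another protein-coding gene, only 2 sites, those of NDUFB6 on the minus strand, lay inside another span, that of SMIM27, which is on the plus strand.

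Other genes of the respiratory chain were counted in the same way. Of 16 complex I assembly factors with other names, 12 had a site (75.0%), led by COA1 with 28, TMEM126B with 18 and FOXRED1 with 14; DMAC2, NUBPL, TMEM126A and TMEM186 had 0. For complex II and its assembly factors 3 of 8 genes had a site (37.5%), with a maximum of 6 in SDHB. This share was near the 38.0% of all protein-coding genes. For complex III it was 7 of 10 (70%), with 29 in UQCRC2. Complex IV was taken as all symbols of COX and a digit, so its list is not limited to subunits. There the share was 15 of 26 (57.7%), with 9 each in COX20 and COX5A. For complex V it was 17 of 20 (85%). There the readthrough gene ATP5MF-PTCD1 had 30 sites while ATP5MF itself had 0, and ATP5F1B followed with 29. Complexes II to V together, with the readthrough gene included, had a site in 65.6% of genes and a mean of 5.05 sites per gene. In NDUF genes the values were 71.7% and 4.09, and in all protein-coding genes 38.0% and 4.71. Mitochondrial ribosomal protein genes had a site in 66.2% of 77 genes with a mean of 3.56, and proteasome genes in 84.0% of 50 with a mean of 11.1. The 7 complex I genes of the mitochondrial chromosome had 0 sites, as that chromosome had none in the list. If listed sites were random draws, this would allow a share of up to 0.0031% of all sites. Whether that chromosome was removed in processing is not known, so no limit on binding follows.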

How the data were processed

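The deposited list is 1 BED file, attached by the labels to the 3 SF3B1 wt/wt libraries; per the file headers, it holds merged sites of 5 nt for which each replicate of one or the other condition gave support. The deposited score column is 0 throughout and was not used. The submitters' processing notes name FastQC 0.11.8, STAR 2.7.3a and 2.6.1b, UMI-tools 1.0.0, bedtools 2.27.1 and the builds GRCh38.p10 and GRCh38.p12, without roles; the site caller is not given in the sources used here. A rule of reproducibility can leave out weakly expressed genes, and merging sets a lower limit on their spacing.

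Site centres were set in RefSeq gene spans (GRCh38.p14). Strands came from a RefSeq table of gene starts, otherwise from the strand with more sites (1223 genes). A site in overlapping genes of one strand counts in each. Members, classes and lists were chosen with earlier results of these data known. The counts cover all NDUF genes, and 1 gene's own values are not reported here; the fuller accounts follow the number and density of sites. No genome sequence or exons were used, so the planned count near 3′ splice sites was not made; no NDUF site lay in a RefSeq promoter sequence. Because the list pools replicates, no test was run. Counting was tested on simulated sites in 200 genes, where all 200 were recovered, and recounted for all 46 NDUF genes. Alternatives covered merging, region numbers, strands, overlaps, spans and classes. Software was SciPy 1.17.1, pandas 2.3.3, NumPy 2.4.6, matplotlib 3.10.9 and Python 3.11.15.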

Additional observations from a re-analysis of the deposited data

How the results depend on the processing

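Of 62 recalculations of 21 results, 58 stayed within the set limits (1.5 times for counts, means and the ratio of pairs, the 95% interval for shares). Some of them could hardly do otherwise. Merging touching sites or keeping 1 site per region number removes only neighbours of a kept site, so the class shares with a site could hardly change. The intervals of these shares are also too wide for the omission of 1 gene to matter. The tally is therefore no measure of robustness. The number of NDUF genes with a site fell from 33 to 14 with a minimum of 5 sites, since more was asked of each gene. The share of NDUF sites near the gene end was 5.85% within 250 nt, where all protein-coding genes had 0.429%, and 15.4% within 1000 nt, where they had 3.10%. The ratio of sites in the last over the first 10% turned from 0.688 to 1.44 when genes with fewer than 5 sites were included, since those hold 15 sites in the last 10% and 2 in the first. The ratio of pairs 25 to 45 nt apart over pairs 46 to 66 nt apart rose from 3.23 to 5.14 without NDUFV1. The total of 188 sites ranged from 172 (1 site per region number) to 192 (both strands). The windows for gene ends and the core class by function were chosen after seeing the data. The count near 3′ splice sites, with its window, was not run because exons were not used, and omission of single replicates could not be run on a pooled list. No paired analysis was possible because replicates are pooled into 1 set of positions. The depth is unknown, which limits what 0 sites in a gene can show.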

Other observations

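Many NDUF genes have processed copies elsewhere in the genome, to which reads could also align. RefSeq lists 69 NDUF pseudogenes, and none of them contained a site. Of the 21 NDUF genes with such a copy 15 had a site, 52 sites in all, and of the 25 without one 18 had a site, 136 in all. The share with a site was thus about equal in both groups and near the 71.7% of the family. Genes without a copy include NDUFS1, NDUFA10, NDUFV1 and NDUFAF7, which had the most sites, so the groups also differ in class. Whether alignment to copies lowered the counts was not tested. Of the 6 NDUF genes on chromosome 19, 3 had a site (NDUFS7 with 8, NDUFA7 with 2 and NDUFA3 with 1).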
